A study of Rattus norvegicus with 56 samples.

Results

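The neurotrophins and their receptors were followed through cultured rat hippocampal neurons after repetitive transcranial magnetic stimulation (rTMS). Members were the ligand genes Bdnf and Ntf3 and the receptor genes Ntrk2, Ntrk3, Ngfr and Sort1, 6 of the 13888 genes with a symbol that could be tested. They were found on the array by the RefSeq transcript record listed for each probe, which gave 13 probes, and the brightest probe of a gene stood for it. In the rat assembly GRCr8, Bdnf lies on chromosome 3, Ntf3 on 4, Ntrk2 on 17, Ntrk3 on 1, Ngfr on 10 and Sort1 on 2. Cultures came from E18 Sprague Dawley embryos and had been treated with 1 Hz stimulation, with intermittent theta burst stimulation (iTBS) or with sham stimulation, for which the coil was kept away from the dish. In 1 Hz stimulation the pulses are evenly spaced, and in iTBS they come in short high-frequency bursts. RNA was taken when stimulation ended (0 h) and 2 h, 8 h, 24 h or 48 h later, and untreated cultures were taken at 0 h. No group carried a genetic change, and the labels do not say whether replicate arrays came from separate cultures, so p-values measure the spread between these samples, which may be technical. After 1 array with a badly placed grid was left out (1 Hz at 2 h replicate 2), 55 arrays remained. Over these 5 times, in that order, there were 4, 4, 3, 3 and 3 sham arrays, 3, 2, 4, 3 and 4 arrays of 1 Hz, and 4, 4, 3, 3 and 4 arrays of iTBS, with 4 untreated arrays at 0 h. The numbers in the sample descriptions run in 4 series, called A, B, C and D here, with 11, 12, 17 and 15 arrays. The labels do not say what a series is.

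Neurotrophins are secreted growth factors that keep neurons alive and tune their synapses. Each is made as a longer precursor and cut to a mature form. Mature forms act through Trk receptor kinases, whereas precursors bind the p75 receptor together with sortilin. In the hippocampus, Bdnf is known as a gene whose transcription follows neuronal activity, and it is read from several promoters, each with its own first exon. Its receptor gene Ntrk2 makes a full-length kinase receptor, found mainly in neurons, and shorter forms without the kinase, found also in glia.

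Promoter windows were read because the cAMP-response element, the site of the activity-regulated factor CREB, is known from Bdnf. RefSeq promoter windows (build GRCr8, 250 bases before a transcript start) were available for 6 Bdnf, 3 Ntf3 and 1 Sort1 start sites. The core letters of that element, TGACG on either strand, were present in 1 of the 6 Bdnf windows, in 0 of 3 Ntf3 windows and in 0 of 1 Sort1 window, and in 18.2% of all 33469 windows. The matching Bdnf window lies on the plus strand at chr3:116637608-116637857, and it is shown because it holds the match. Capitals mark the match, which is on the minus strand, starts 35 bases before the transcript start and reads CGTCA on the strand printed.
Bdnf promoter window: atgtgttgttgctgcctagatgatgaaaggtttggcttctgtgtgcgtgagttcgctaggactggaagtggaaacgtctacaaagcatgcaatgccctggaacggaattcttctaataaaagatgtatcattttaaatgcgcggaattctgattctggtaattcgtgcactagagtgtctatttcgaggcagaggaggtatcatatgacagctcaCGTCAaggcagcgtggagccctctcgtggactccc
A match of letters is a description and not a binding site. The Bdnf array probe is listed to the record NM_012513, and promoter use was not measured.

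Levels are given as scaled log2 signal, set so that the probes of each array average 0. A difference of 1 is a doubling or halving of the signal on an array of typical spread. A level of 1 probe is not set against that of another, because probes differ in how well they bind. On each of the 55 arrays, 66.1% to 81.8% of spots were well above background, and all 13 member probes were well above background on 55 of 55 arrays and saturated on none. Differences are tested with limma over all 35694 tested probes, and a change is called where the p-value, adjusted by Benjamini-Hochberg, is below 0.05.

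The cultures held markers of neurons and of glia. The neuron markers Map2 and Snap25, the astrocyte markers Gfap and Aqp4 and the oligodendrocyte-lineage markers Mbp and Pdgfra were well above background on 55 of 55 arrays each, whereas the microglial marker Csf1r was so on 7 and the endothelial marker Cldn5 on 6. Csf1r and Cldn5 are single markers of their lists and do not show whether such cells were absent. The mean level of the 5 microglial markers had a median of -0.26, -0.44, -0.54 and -0.66 in series A, B, C and D. Series differed in the marker lists. The mean level of the 6 oligodendrocyte-lineage markers had a median of 6.04, 7.002, 8.08 and 4.23 in series A, B, C and D, and that of the 6 endothelial, mural and fibroblast markers one of 0.27, -0.13, 1.11 and 2.56.

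No difference between stimulated and sham cultures was called for any member. Of 30 differences between 1 Hz and sham (6 genes at 5 times) 0 were called, against a background of 0.00168% of all probe tests in those comparisons (at most 0.0056% at any 1 time). Of 30 differences between iTBS and sham 0 were called (background 0.00112%), and of 30 between iTBS and 1 Hz 0 were called (background 0.00168%). At an unadjusted p under 0.05 the count was also 0 in each of the 3 families. Untreated cultures differed from sham at 0 h in 0 of 6 members (background 0.0028%), and a joint test of any stimulated group against its sham called 0 of 6 (background 0.0028%). The smallest adjusted p in all 96 tests was 0.9997, in the limma fit to group means.

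Bdnf, the ligand of TrkB, is known to be induced by neuronal activity. At 0 h its level in series A, B, C and D was 4.09, 3.62, 1.85 and 3.27 in sham and 3.40, 3.55, 1.28 and 2.33 after iTBS, and in series B, C and D it was 3.84, 1.56 and 3.90 after 1 Hz. The untreated arrays were at 4.02 and 3.88 in series A and at 1.85 and 1.46 in series C. The 3 arms and the untreated cultures overlapped, with series C lowest in each of them, and iTBS lay below sham in 4 of 4 series. Within series, Bdnf after iTBS was also lower than sham in 4 of 4 at 2 h, but higher in 3 of 3 at 8 h, in 3 of 3 at 24 h and in 2 of 3 at 48 h.

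At 2 h the Bdnf level in series A, B, C and D was 5.23, 3.93, 1.61 and 4.02 in sham and 4.65, 3.47, 1.56 and 3.73 after iTBS. After 1 Hz it was 1.77 in series C and 3.74 in series D. The lowest Bdnf difference from sham of all, -0.94 ± 0.89 (SE) for 1 Hz at 2 h, thus came from 1 Hz arrays of series C and D set against sham arrays of all 4 series, and without 1 Hz 2 h replicate 1 it was 0.04. Within series C and D, 1 Hz and sham at 2 h were closer to each other than the series were. The highest Bdnf difference was 0.34 ± 0.79 for 1 Hz at 8 h, and without sham 8 h replicate 2 it was -0.02.

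Ntf3, which encodes neurotrophin-3, the ligand of TrkC, differed from sham by between -0.35 ± 0.65 for iTBS at 2 h and 0.57 ± 0.76 for iTBS at 8 h. At 8 h its level in series B, C and D was 0.14, 1.58 and 2.35 in sham and 0.95, 1.72 and 3.13 after iTBS. The arms overlapped, while within each of the 3 series iTBS was higher than sham, by 0.80, 0.13 and 0.78, and 1 Hz was higher than the same sham arrays, by 0.78, 0.26 and 0.80. With series at each time as a block the difference was 0.57 ± 0.30 for iTBS (unadjusted p = 0.0679) and 0.61 ± 0.30 for 1 Hz (unadjusted p = 0.0511). Without that block, leaving out sham 8 h replicate 1 gave -0.04 for iTBS, and leaving out iTBS 8 h replicate 3 gave -0.03, since the arms then no longer held the same series.

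Among the receptors, Ntrk2 (TrkB) differed from sham by between -0.39 ± 0.28 for 1 Hz at 24 h and 0.24 ± 0.25 for iTBS at 0 h. Ntrk3, which encodes the neurotrophin-3 receptor TrkC, differed by between -0.12 ± 0.28 for 1 Hz at 2 h and 0.30 ± 0.23 for iTBS at 2 h. At 2 h its level in series A, B, C and D was 8.20, 8.22, 7.90 and 7.74 in sham and 8.59, 8.52, 8.17 and 7.98 after iTBS, higher after iTBS in 4 of 4 series, with overlap between the arms. Ngfr, the p75 receptor, differed by between -0.51 ± 0.49 for 1 Hz at 0 h and 0.40 ± 0.49 for 1 Hz at 8 h. Sort1, which encodes sortilin, differed by between -0.31 ± 0.31 for 1 Hz at 2 h and 0.27 ± 0.27 for iTBS at 48 h.

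**Figure D1:**
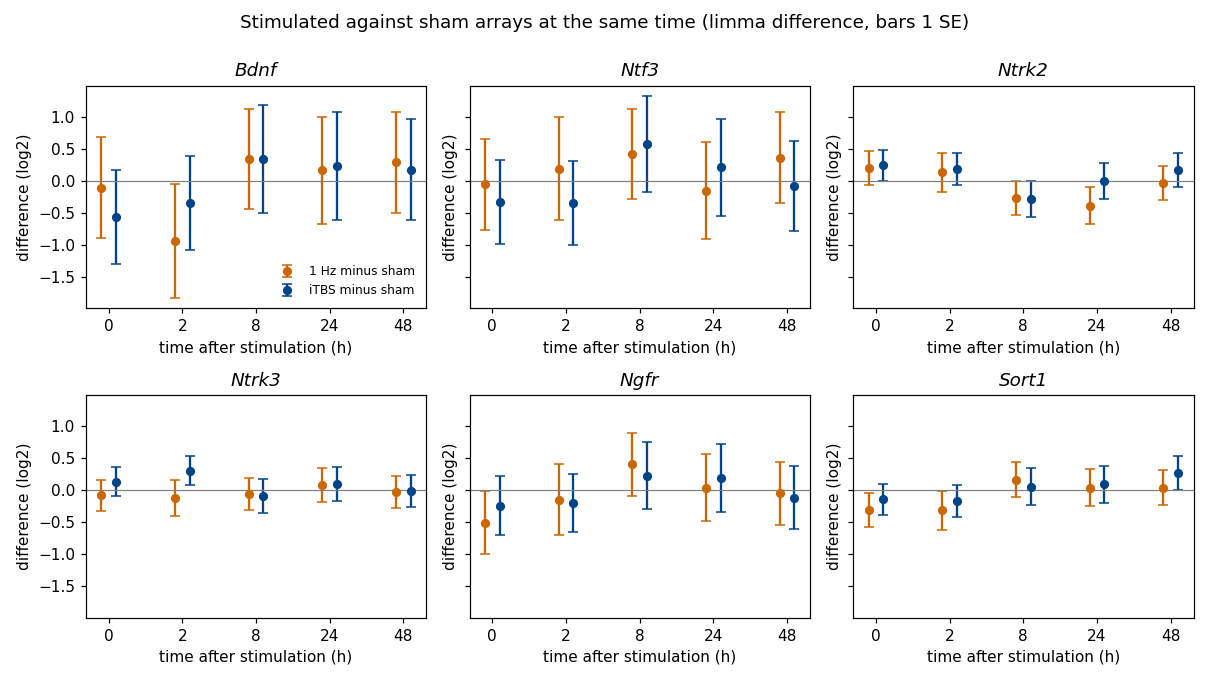
Difference in log2 level between stimulated and sham arrays (y axis) for the 6 genes at each time after stimulation in hours (x axis), with 1 Hz in orange, iTBS in blue and bars of 1 SE from the limma fit to 55 arrays. The lowest point is Bdnf after 1 Hz at 2 h, at -0.94, and of the 60 differences none was called.

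The precision of a difference from sham differed between members. The 95% interval of a difference reached at most 1.80 log2 units to either side for Bdnf, 1.62 for Ntf3 and 1.13 for Ngfr, but 0.61 for Ntrk2, 0.62 for Sort1 and 0.57 for Ntrk3. These widths belong to the fit without series, in which differences between series count as error. They are intervals of single tests, not adjusted over the probes. A change of such a width would not have been called, since a call needs an adjusted p under 0.05.

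Setting each stimulated array against sham of the same series and time narrowed the error. This fit still called 0 of 96 member differences (smallest adjusted p 0.149 in limma), with 5 at an unadjusted p under 0.05. A count of 5 of 96 is near what that threshold gives where nothing differs. The share over all probes in this fit is not given here. The SE of Bdnf then ran from 0.19 to 0.26. Bdnf after iTBS at 0 h was at -0.57 ± 0.19 (unadjusted p = 0.0063, adjusted p = 0.149), and iTBS against 1 Hz at 0 h was at -0.73 ± 0.21 (unadjusted p = 0.00191, adjusted p = 0.515). Ntrk3 after iTBS at 2 h was at 0.30 ± 0.12 (unadjusted p = 0.0175). After 1 Hz at 48 h, the same fit gave 0.49 ± 0.21 for Bdnf (unadjusted p = 0.0302, adjusted p = 0.2995). For Ntf3 it gave 0.73 ± 0.29 (unadjusted p = 0.0184, adjusted p = 0.266). Within series, these differences ran from 0.01 to 1.27 (median 0.12) for Bdnf and from -0.05 to 1.63 (median 0.57) for Ntf3, highest in series A for both.

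Related genes were read in the same fit. Over 6 lists of related genes, from proteases that cut the precursors to targets of neuronal activity, 85 genes were tested and 0 of their 1360 arm differences were called.

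Where the members did differ was between series. All 6 differed between series in a moderated F test with group in the model (background 75.4% of all probes), with adjusted p from 2.04e-13 for Ntf3 to 0.000823 for Ngfr. A share near the background is not particular to these genes. Its size and direction for each member are described next.

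**Figure D2:**
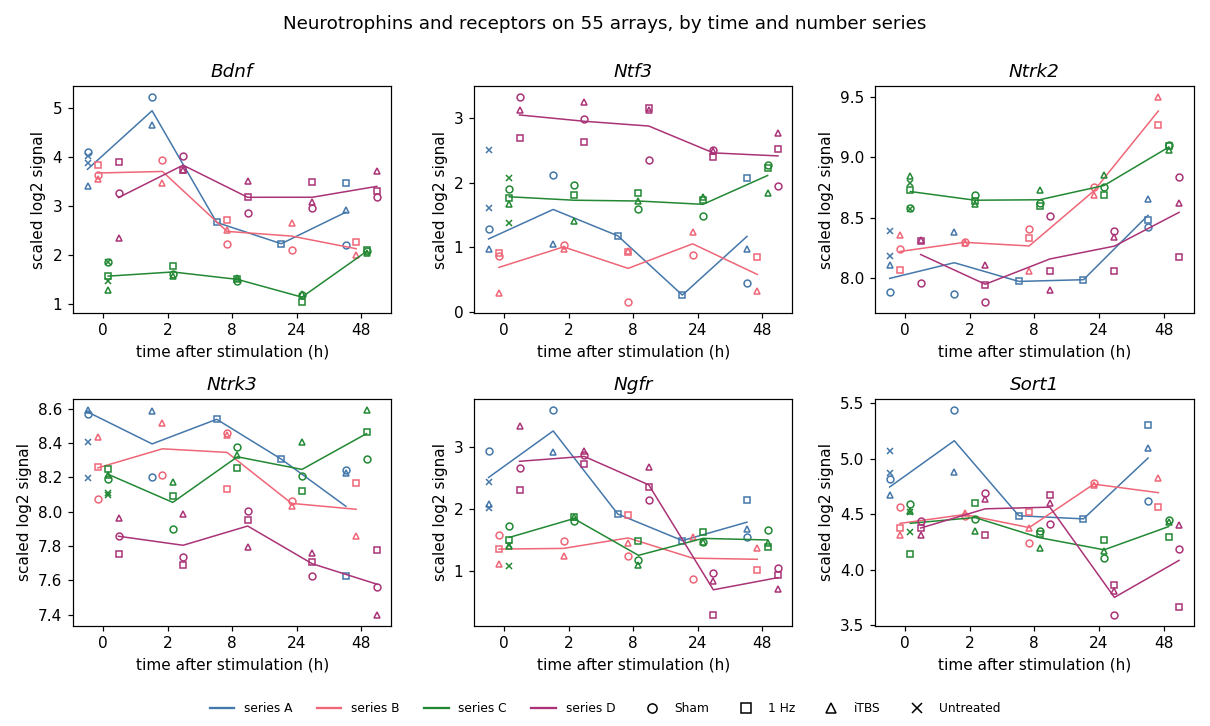
Scaled log2 signal (y axis) of the 6 genes on each of the 55 arrays against time after stimulation in hours (x axis). Colours mark the series, symbols the arm, and lines join the means of sham, 1 Hz and iTBS arrays of a series, with Bdnf of series C at 1.03 to 2.09 throughout while Ngfr of series D drops between 8 and 24 h.

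Bdnf was lowest in series C. Its level ran from 2.21 to 5.23 (median 3.47) in the 11 arrays of series A, from 1.99 to 3.93 (median 2.69) in the 12 of series B, from 1.03 to 2.09 (median 1.56) in the 17 of series C and from 2.33 to 4.02 (median 3.30) in the 15 of series D. Series C lay wholly below A and D and overlapped with B at its upper end. Adjusted for group, series C was lower than the mean of A and B, with a difference of -1.59 ± 0.17 (adjusted p = 9.46e-10, background 40.1%) and series D was higher than the mean of the others by 0.73 ± 0.16 (adjusted p = 0.000214, background 53%), while A and B differed by 0.56 ± 0.23 (adjusted p = 0.0642, background 30.4%), which did not pass.

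Ntf3 followed another order, with series D highest. Its level ran from 0.26 to 2.51 (median 1.18) in series A, from 0.14 to 1.23 (median 0.89) in B, from 1.37 to 2.28 (median 1.77) in C and from 1.95 to 3.33 (median 2.69) in D. Series B lay wholly below series C and D. Series D exceeded the mean of the others by 1.52 ± 0.12 (adjusted p = 2.07e-13), series C the mean of A and B by 0.77 ± 0.13 (adjusted p = 7.58e-06), and A exceeded B by 0.52 ± 0.18 (adjusted p = 0.0262). The call between A and B was lost without any 1 of 4 arrays (1 Hz 48 h replicate 1, sham 2 h replicate 3, iTBS 0 h replicate 1 and iTBS 48 h replicate 2), with values of 0.43 to 0.48.

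The brightest probes of the Trk genes moved less. Ntrk2 had medians of 8.18, 8.35, 8.73 and 8.18 in series A, B, C and D, and its series C range of 8.57 to 9.10 overlapped with every other series. Series C was higher than the mean of A and B by 0.41 ± 0.07 (adjusted p = 7.50e-06), D was lower than the mean of the others, with a difference of -0.27 ± 0.06 (adjusted p = 0.000710) and A lower than B, with -0.35 ± 0.09 (adjusted p = 0.00477). Other Ntrk2 probes did not keep these signs, as the closing section gives.

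Ntrk3 was lowest in series D, where it ran from 7.40 to 8.01 (median 7.76), against 7.63 to 8.60 (median 8.31) in A, 7.86 to 8.52 (median 8.19) in B and 7.90 to 8.59 (median 8.21) in C. Series D differed from the mean of the others by -0.49 ± 0.06 (adjusted p = 2.31e-08), and neither of the other series contrasts passed for this probe. Its probe A_44_P1101111, listed to XM_008759513, gave -0.42 (adjusted p = 2.78e-05) for series D and -0.39 (adjusted p = 0.000267) for C against A and B. Its probe A_64_P127858, listed to NM_019248, gave -0.02 for D, -0.24 (adjusted p = 0.0125) for C and 0.30 (adjusted p = 0.0346) for A against B.

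Ngfr differed between A and B by 1.00 ± 0.24 (adjusted p = 0.00154), and its other series contrasts did not pass. It ran from 1.49 to 3.61 in series A and from 0.87 to 1.91 in series B, so the ranges overlapped. Sort1 was highest in series A, with medians of 4.87, 4.52, 4.35 and 4.38 in A, B, C and D and ranges that overlapped. Series C was lower than the mean of A and B, with a difference of -0.33 ± 0.09 (adjusted p = 0.00297), and D was lower than the mean of the others, with -0.30 ± 0.08 (adjusted p = 0.00302).

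The Sort1 result for series D did not hold for the gene's other probe. A_43_P10888, listed to the same record as the brightest probe, NM_031767, was higher in series D by 0.44 (adjusted p = 8.29e-05). Sort1 between series A and B, at 0.33 ± 0.12 (adjusted p = 0.0388), lost its call without any 1 of 11 arrays, with values of 0.25 to 0.32.

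Counted over the 6 members, 5 differed between D and the others (background 53%). Between C and the mean of A and B 4 differed (background 40.1%), and between A and B 4 (background 30.4%). Series A, B and C lie on slides of their own and D on all 7. With slide as a further block, 6 members were called for D, 4 for C and 0 for A against B, and Sort1 for C turned to 0.10. The oligodendrocyte-lineage and fibroblast markers given above moved between the same series, and their part in these differences was not tested. In bulk samples, fewer cells of a type and less RNA per cell cannot be told apart.

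Time after stimulation was compared over the 3 arms together, with group and series in the model. A moderated F test over the 5 times called 3 of 6 members (background 27%), namely Ntrk2 (adjusted p = 6.88e-06), Ngfr (adjusted p = 0.00124) and Bdnf (adjusted p = 0.00556). Ntf3, Ntrk3 and Sort1 had adjusted p of 0.664, 0.163 and 0.164. Against 0 h, 0 of 6 members were called at 2 h (background 0%), where 0 of 6 also had an unadjusted p under 0.05 in limma, and 0 of 6 at 8 h (background 2.37%), where Bdnf alone had one, at -0.51 ± 0.23 (unadjusted p = 0.0308). At 24 h 2 of 6 were called (background 14%) and at 48 h 2 of 6 (background 27%).

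Ntrk2 had the smallest adjusted p of the members over time, and its probes went opposite ways. Both probes listed to NM_001163168 rose between 0 and 48 h, whereas both probes listed to NM_012731 and the probe listed to XM_006253507 fell. The tables used here do not say which receptor form each record encodes.

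The brightest probe, A_44_P668359 (NM_001163168), ran from 7.89 to 8.85 (median 8.31) on the 11 arrays of 0 h and from 8.18 to 9.50 (median 8.84) on the 11 arrays of 48 h. It rose by 0.56 ± 0.09 (adjusted p = 1.34e-05) and was higher in 9 of 10 pairs of arrays of the same arm and series. In series A, B, C and D the change was 0.52, 1.16, 0.37 and 0.35. The groups overlapped and the rise was present in each series.

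The other probe of that record, A_42_P631184, went from a median of 5.66 (5.09 to 6.13) to 6.36 (5.26 to 6.72), a change of 0.62 ± 0.14 (adjusted p = 0.00064), and was higher at 48 h in 4 of 4 series. At 24 h neither of these probes was called, at 0.17 ± 0.09 for the brightest and 0.13 ± 0.14 for the other. The rise of this record was thus called at 48 h and not before.

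Probes of NM_012731 moved down and earlier. A_42_P538400 had a median of 7.40 (7.24 to 7.72) at 0 h, 6.99 (6.63 to 7.25) at 24 h and 7.03 (6.13 to 7.39) at 48 h, so that the 24 h arrays overlapped with those of 0 h only at the edge. The change was -0.45 ± 0.12 at 24 h (adjusted p = 0.00644) and -0.45 ± 0.11 at 48 h (adjusted p = 0.0024). A_64_P058883 had medians of 5.33, 4.83 and 4.82 at these times, with changes of -0.47 ± 0.14 at 24 h (adjusted p = 0.0155) and -0.68 ± 0.13 at 48 h (adjusted p = 0.000147). Each of these probes was lower at 48 h in 4 of 4 series, with changes of -0.96 to -0.08 and of -1.35 to -0.21. The 24 h call of A_64_P058883 was lost without 1 Hz 24 h replicate 1, at -0.42 (adjusted p = 0.0505).

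The probe of XM_006253507, A_44_P1114028, went from a median of 1.51 (0.87 to 2.52) to 0.92 (-0.18 to 2.00), a change of -0.68 ± 0.22 (adjusted p = 0.0211). It was lower in 3 of 4 series, with -2.07 in series B and 0.01 in series C. The call was lost without any 1 of 3 arrays (1 Hz 0 h replicate 1, sham 48 h replicate 2 and iTBS 48 h replicate 2), with values of -0.61 to -0.53.

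**Figure D3:**
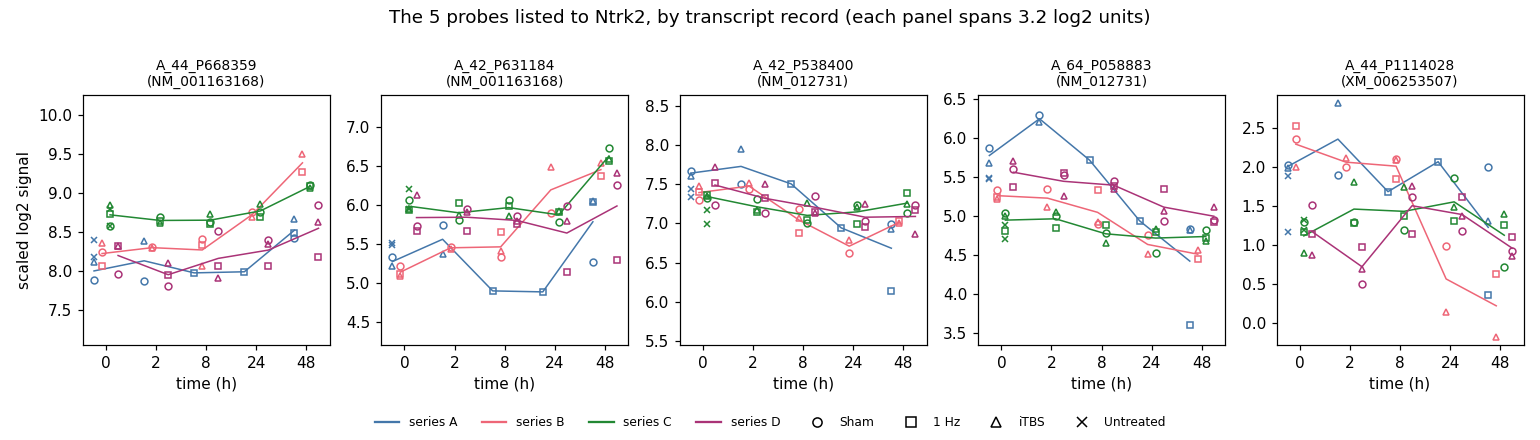
Scaled log2 signal (y axis, 3.2 log2 units in each panel) of the 5 probes listed to Ntrk2 on each of the 55 arrays against time in hours (x axis), with the transcript record above each panel. Colours mark series, symbols mark arms and lines join series means; from 0 to 48 h the means of the 2 probes of NM_001163168 go up in 4 of 4 series and those of the 2 probes of NM_012731 go down in 4 of 4.

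Astrocyte markers rose too. At 24 h 2 of 6 were called higher (background 8.58% higher), with a list median of 0.22. The brightest Ntrk2 probe was then at 0.17, which was not called, and a difference in timing was not tested. At 48 h 4 of 6 were higher than at 0 h (background 13.6% higher), among them Gfap by 1.64 and Aqp4 by 1.04, and the mean of the list went from a median of 6.65 (6.11 to 6.95) to 7.18 (6.63 to 7.90). Of 7 neuron markers 0 were higher and 2 lower (background 13.4% lower), Map2 with a change of -0.64 and Tubb3 with -0.63. The neuron list mean had a median of 5.32 at both 0 and 48 h. The part of cell composition in the Ntrk2 changes was not tested.

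Over the 55 arrays, after each series mean was subtracted, the brightest probe correlated at 0.83 with the astrocyte marker mean, and the other probe of NM_001163168 one of 0.51. The probes of NM_012731 had correlations of -0.42 (A_42_P538400) and -0.60 (A_64_P058883) with that list and of 0.59 and 0.65 with the neuron list, against -0.07 and 0.07 with the neuron markers for the probes of NM_001163168. XM_006253507 stood at -0.43 and 0.19. These are descriptions over arrays that share slides, arms and times. Between probes, the correlation was 0.71 within NM_001163168, 0.78 within NM_012731 and between -0.51 and -0.25 across those records.

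Over the sham times, compared within the fit to all arms, Ntrk2 was the member called, 1 of 6 (background 3.3%, adjusted p = 0.0317), for its brightest probe and none of its other 4 (adjusted p = 0.083 to 0.886). In a fit to the sham arrays alone this call was lost (adjusted p = 0.189). Its brightest probe in series A, B, C and D was at 7.89, 8.24, 8.58 and 7.96 in sham at 0 h, and in series A, C and D it was at 8.42, 9.10 and 8.84 in sham at 48 h. Each series with both times was higher at 48 h, and the change was 0.65 ± 0.16 (adjusted p = 0.0252, 1 of 6 members, background 1.61%). That call was lost without any 1 of 4 sham arrays, namely 0 h replicates 1, 2 and 4 (0.64, 0.64 and 0.65) and 48 h replicate 3 (0.54, adjusted p = 0.255). The F test over sham times was lost without any 1 of 10 sham arrays, with adjusted p of up to 0.167.

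Ngfr, the p75 receptor, was lower late. Its median was 1.73 at 0 h (1.12 to 3.34), 1.47 at 24 h (0.28 to 1.64) and 1.39 at 48 h (0.71 to 2.15), with overlap. The change was -0.80 ± 0.24 at 24 h (adjusted p = 0.0198, background 5.39% lower) and -0.73 ± 0.23 at 48 h (adjusted p = 0.0157, background 13.4% lower). It was lower at 48 h in 8 of 10 pairs of the same arm and series. Over the 55 arrays, with series means subtracted, Ngfr correlated at -0.59 with the mean of the astrocyte markers, 4 of 6 of which rose by 48 h, and at 0.58 with the neuron marker mean, and the part of cell composition in the Ngfr change was not tested.

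Most of this came from series D. There, Ngfr in sham at 0 h, 2 h, 8 h, 24 h and 48 h was at 2.67, 2.88, 2.14, 0.96 and 1.05. After 1 Hz it was at 2.31, 2.74, 2.36, 0.28 and 0.93, and after iTBS at 3.34, 2.95, 2.68, 0.85 and 0.71. In all 3 arms of series D, the levels of 24 and 48 h lay below every level up to 8 h.

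The other series moved less. Mean Ngfr at 0 and 48 h was 2.51 and 1.79 in series A, 1.36 and 1.19 in B, and 1.54 and 1.503 in C. Without series D, the change was -0.24 at 24 h (adjusted p = 0.621) and -0.30 at 48 h (adjusted p = 0.309). The 24 h call was also lost without any 1 of 4 arrays (1 Hz, sham and iTBS 24 h replicate 3 and iTBS 0 h replicate 4), with values of -0.71 to -0.65.

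Bdnf had a median of 3.40 at 0 h (1.28 to 4.09), 3.73 at 2 h, 2.58 at 8 h, 2.23 at 24 h (1.03 to 3.48) and 2.25 at 48 h. It was lower at 24 h than at 0 h, with a change of -0.69 ± 0.23 (adjusted p = 0.0417) and lower in 7 of 8 pairs of the same arm and series. This call was close to the threshold. It was lost without any 1 of 13 arrays, with values of -0.71 to -0.56 and adjusted p of up to 0.134. It was also lost without any 1 of the 4 series, where leaving out A, B or C was added after the data were seen. At 48 h the difference was -0.40 ± 0.22 (adjusted p = 0.189).

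Bdnf too took a different course in each series. Its means at 0 h, 2 h, 8 h, 24 h and 48 h were 3.74, 4.94, 2.66, 2.23 and 2.87 in series A and 3.67, 3.70, 2.48, 2.38 and 2.12 in series B. In series C they were 1.56, 1.65, 1.497, 1.13 and 2.07, and in series D 3.17, 3.83, 3.17, 3.17 and 3.40. Series A and B ended below their start, C and D did not, and 8 and 24 h of series A are 1 array each.

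A test of whether the time course differed between series, added after the data were seen, called 3 of 6 members (background 41.9%), namely Ngfr (adjusted p = 1.68e-05), Bdnf (adjusted p = 4.86e-05) and Sort1 (adjusted p = 0.0105). For Sort1 the means at 0, 24 and 48 h were 4.75, 4.46 and 5.01 in series A, 4.42, 4.77 and 4.69 in B, 4.42, 4.18 and 4.39 in C, and 4.38, 3.75 and 4.08 in D. Series D was thus lowest at 24 h, where B was at its highest. The Sort1 call was lost without series B (adjusted p = 0.168) and without series D (adjusted p = 0.191). Ntrk3, the brightest Ntrk2 probe and Ntf3 had adjusted p of 0.0604, 0.125 and 0.213 in that test. The other 4 probes of Ntrk2 were all called in it, with adjusted p of 0.00174 for A_44_P1114028, 0.00434 for A_64_P058883, 0.00892 for A_42_P538400 and 0.0252 for A_42_P631184, so the size of their change over time differed between series.

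The variation of each gene over the arrays was split in the order series, time, series by time, arm at each time and the rest. Series held 64.1% for Bdnf, 75.05% for Ntf3, 39.9% for Ntrk2, 55.9% for Ntrk3, 23.3% for Ngfr and 42.8% for Sort1, against a median of 28.5% over all probes. The arm at each time held between 3.36% (Ngfr) and 7.89% (Ntrk3), against a median of 9.76% over all probes. The rest held between 3.26% (Bdnf) and 13.5% (Sort1), against a median of 19.4%. Arm was taken after series and time, so a gene with a large share for these had less left for arm. A low arm share is therefore not a measure of a weak response. Time held 34.2% for Ntrk2 and 32.1% for Ngfr, against a median of 9.61%.

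**Figure D4:**
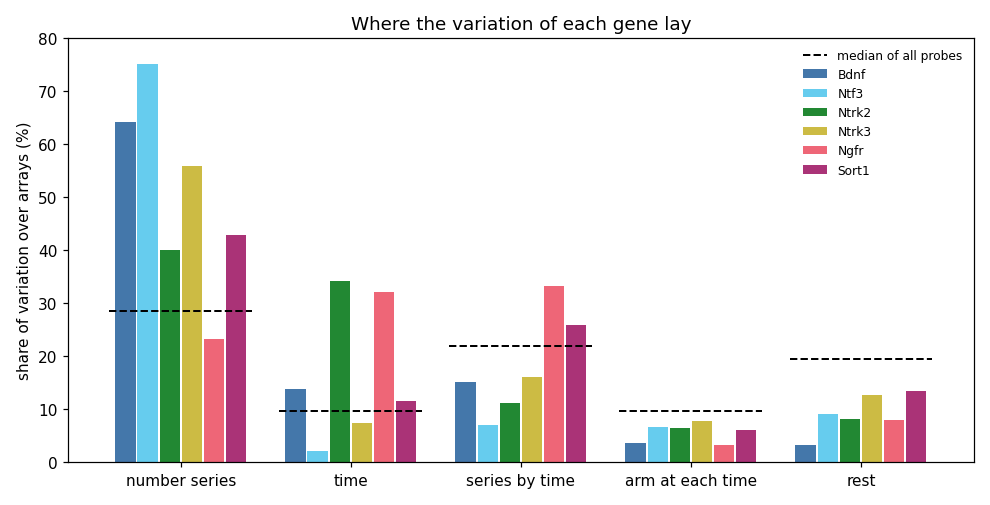
Share of the variation over arrays in percent (y axis) held by series, time, series by time, arm at each time and the rest (x axis), with a bar for each of the 6 genes and a dashed line for the median of all probes. Series is the tallest bar for Ntf3, at 75.05%. Each gene's bar for arm at each time lies below the dashed line at 9.76%, and each bar for the rest below the line at 19.4%.

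Members went together only loosely. After series means were subtracted, the highest correlation between members over 55 arrays was 0.61 for Ngfr with Sort1, the pair of receptors that bind precursors together. Ntf3 had 0.56 with Sort1, 0.52 with Ngfr and 0.48 with Bdnf. Bdnf and the brightest Ntrk2 probe, ligand and receptor, had -0.34, and -0.65 with series means left in.

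By the same measure, the 3 genes closest to each member were Kcna1 (0.85), Klf4 (0.85) and Sertad1 (0.84) for Bdnf, and Gabra5 (0.86), Nell1 (0.82) and Tug1 (0.82) for Ntf3. Kcna1 encodes a voltage-gated potassium channel and Gabra5 a GABA-A receptor subunit. For the brightest Ntrk2 probe they were Mmd2 (0.89), Acsbg1 (0.88) and Pon2 (0.87), and for Ntrk3 Nrp2 (0.75), Pdp2 (0.74) and Acly (0.74). Ngfr was closest to Ppp2r5e (0.85), Calm2 (0.84) and Tpst2 (0.84), and Sort1 to Cndp2 (0.84), Wnt4 (0.83) and Fgf18 (0.81). These correlations over 55 arrays share arms, times and slides.

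Among other ligands and receptors of the family, Ntf4, a further ligand of TrkB, was well above background on 4 of 55 arrays. Of this list of 7 genes, 2 were called over time (background 27%) and 5 over series (background 75.4%). Sorl1, a sortilin relative, was 0.62 higher at 48 h, and Sorcs2, which pairs with p75, was lower, with changes of -0.38 at 24 h and -0.29 at 48 h.

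Of 12 genes that process the precursors or shed receptors, 3 were called over time (background 27%). At 48 h 0 were higher and 3 lower (background 13.6% higher and 13.4% lower). The list median was 0.15 against -0.04 for all probes. Mmp3, a secreted metalloprotease, was 1.26 higher at 24 h (adjusted p = 0.038), Pcsk7, a proprotein convertase, was lower, with changes of -0.42 at 24 h and -0.34 at 48 h, and Furin, which cleaves the precursors, had -0.35 at 48 h.

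Of 27 Trk adaptors and effectors tested of 29 listed, 7 were called over time (background 27%) and 21 over series (background 75.4%). At 48 h 3 were higher and 4 lower (background 13.6% higher and 13.4% lower), with a list median of -0.05. Shc1, an adaptor that docks on active Trk receptors, rose by 0.63 (adjusted p = 0.000103), and the kinase gene Akt1 was lower, with a change of -0.74 (adjusted p = 0.000129). Of 11 partners of p75, 3 were called over time (background 27%). At 48 h 1 was higher, Irak1 at 0.29, and 1 lower, Traf6 at -0.34, which was named after its values were seen. Over series 6 were called (background 75.4%), and Arhgdib had means of -0.20, -0.56, -0.12 and 2.61 in A, B, C and D.

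Of 13 transcription factors and regulators of Bdnf tested of 14 listed, 4 were called over time (background 27%) and 10 over series (background 75.4%). At 48 h 0 of them were higher and 3 lower (background 13.6% higher and 13.4% lower). Npas4, an activity-dependent factor that acts on Bdnf promoters, was lower at 8 h, with a change of -2.32 (adjusted p = 0.0231). Its means in series A, B, C and D were -1.44, -2.80, -3.81 and -1.75, each below the average of the probes. How many arrays had Npas4 well above background is not given here. The size of its change and its order over the series are therefore uncertain. Of 15 activity-induced genes, 6 were called over time (background 27%) and 13 over series (background 75.4%). At 48 h 0 were higher and 2 lower (background 13.6% higher and 13.4% lower), among them Nr4a3 with a change of -1.02 (adjusted p = 0.00108). Arc, a synaptic gene induced by activity, had means of 4.93, 4.86, 2.09 and 2.82 in series A, B, C and D, and Fos means of 1.63, 1.21, -0.45 and 2.31. Series C, where Bdnf was lowest, was also the lowest for Npas4, Arc and Fos, with Npas4 and Fos below 0 there. Against the mean of A and B, 11 of the 15 activity-induced genes were lower in series C and 1 was higher. Of the 13 transcription factors and regulators, 4 were lower and 1 was higher (background 19.8% lower and 20.3% higher). A shared cause was not tested.

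Over the 85 genes of these lists, 25 (29.4%) were called over time and 63 (74.1%) over series, against 27% and 75.4% of all probes, so the lists as a whole stood near the background in both.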

How the data were processed

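RNA of 56 samples of cultured neurons was hybridized to Agilent one-colour rat arrays (Cy3). The deposited scanner files give, per spot, a processed intensity that the authors extracted with Agilent Feature Extraction 12.0.3.1, already corrected for background and not normalized between arrays. The deposited series matrix gives 1 score per probe, a z-score that the authors computed within each array. Scores recomputed here differed from it by at most 0.005. The scanner files name build rn4. Symbols came from a RefSeq table (GRCr8) through the unversioned record.

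The log2 of the processed intensity was taken without outlier spots, averaged per probe, converted to z-scores within each array as in the study's methods, and multiplied by the median array SD, 4.06. Probes well above background on at least 3 of 55 arrays were kept (35694). One array with a misplaced grid (correlation with the mean of the others -0.01) was left out. Arrays have no read depth, and their number limits the precision.

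Fits used limma 3.58.1 in R 4.3.3, two-sided, with Benjamini-Hochberg adjustment over all 35694 probes. Arm comparisons had no covariate, following the methods, with 39 residual degrees of freedom. Series and time tests had group and series (36), and the series by time test had arm and series by time (32). Scripts were tested on simulated data. Text names the 6 members in every comparison, their relative Ntf4, genes of fixed pathway lists with the largest changes over time or series, the 3 most correlated genes of each member and defining markers. Members and lists were chosen with earlier results of these data known. Alternatives were 75th-percentile scaling, quantile normalization, normexp with offset 50, other filters, all 56 arrays, number series, slide or replicate number as a block, other probes, and leaving out arrays or series. Some genes that the naming rule covers are not reported here.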

Additional observations from a re-analysis of the deposited data

Results flagged for a closer look

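Bdnf, Ngfr and Sort1 are listed here because their change over time differed between series in a moderated F test of the difference itself (limma, 12 interaction terms, 32 residual degrees of freedom), with adjusted p of 4.86e-05, 1.68e-05 and 0.0105. From 0 to 48 h, Bdnf changed by -0.88, -1.55, 0.50 and 0.23 in series A, B, C and D, and Ngfr by -0.72, -0.17, -0.04 and -1.88. With all 56 arrays the adjusted p was 0.919 for Bdnf, 0.613 for Ngfr and 0.7904 for Sort1. In the groups of 4 arrays, each of the 6 members was examined for a sample far from the rest, 48 checks in all, and 0 found one.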

How the results depend on the processing

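Across alternatives, 0 of 96 arm differences of the members were called under any setting except all 56 arrays, with the misplaced grid included, where 11 were. With all 56 arrays the count of members was 6 for 1 Hz against sham, 5 for iTBS against 1 Hz, 3 between series, 1 for series C, 2 for series D, and 0 for series A against B, over time, at 24 h, at 48 h, in sham at 48 h, over sham times and for series by time.

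Between series A and B (4 members) the count was 2 with the 75th percentile, 2 with quantile normalization and 0 with slide as a further block. At 24 h (2 members) it was 0 with no block, 1 with no filter, 0 with slide as a further block, 1 without series A, B or C and 0 without D. At 48 h (2 members) it was 1 with no block, 1 with slide, 1 without series A, 4 without C and 1 without D. Over time (3 members) it was 1 without D, and for series by time (3 members) 5 without A. In sham at 48 h (1 member) it was 0 with no block, with sham arrays alone and without A, C or D, and over sham times (1 member) 0 with the 75th percentile, no block, sham arrays alone and without A or D.

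Replicate numbers paired the arrays less closely than series did. Deviations from group means correlated by 0.16 on average between arrays of the same replicate number (-0.46 to 0.78) and by -0.056 between different numbers. The average was 0.398 within a series and -0.13 between series. With the replicate number as a block, 0 arm differences were called, 2 members over time, 0 at 24 h, 1 at 48 h, 0 in sham at 48 h and 0 over sham times.

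Leaving out 1 array gave 2 to 5 members between A and B, 0 to 1 in sham at 48 h, 0 to 2 over sham times, 3 to 4 over time, 3 to 4 for series by time, 0 to 2 at 24 h and 2 to 3 at 48 h. It also turned Bdnf after 1 Hz at 2 h (-1.93 to 0.039) and at 8 h (-0.020 to 0.68), Ntf3 after iTBS at 8 h (-0.036 to 1.07) and Ntrk3 after 1 Hz at 2 h (-0.32 to 0.076), none of which was called. The 24 h call of Bdnf was lost without 1 Hz 0 h replicates 1 and 3, 1 Hz 24 h replicates 1 and 2, sham 0 h replicates 1 and 2, sham 24 h replicates 1 and 3, iTBS 0 h replicates 1 and 3, or iTBS 24 h replicates 1, 2 and 3.

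Other probes of Ntrk2 turned the sign of its brightest probe. A_64_P058883 gave 0.29 for 1 Hz at 24 h, -0.06 for iTBS at 0 h, 0.37 for A against B, -0.32 for C, 0.27 for D, -0.64 in sham at 48 h and -0.68 at 48 h. A_44_P1114028 gave 0.32, -0.36, 0.30 and -0.34 for the same comparisons up to C, -0.56 in sham and -0.68 at 48 h. A_42_P538400 gave 0.15 for A against B, 0.045 for D, -0.29 in sham and -0.45 at 48 h, and A_42_P631184 gave 0.12 for D. Ntrk2 after iTBS at 0 h was -0.054 with normexp and -0.052 with quantile normalization.

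Ntrk3 after 1 Hz at 2 h was 0.092 with series at each time as a block and 0.0063 with series as a block, and Ntrk3 after iTBS at 2 h was -0.02 with probe A_64_P127858. Sort1 was -0.17 with all 56 arrays for A against B. For C it was 0.029 with all 56 arrays, 0.10 with slide as a further block and 0.15 with probe A_43_P10888, which gave 0.44 for D. Causes were not tested.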
